A study of Mus musculus with 2 samples.

Results

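The genes described are 10, the 3 synapsins (Syn1, Syn2, Syn3), the 2 synaptophysin relatives Syp and Synpr, the 3 SV2 genes (Sv2a, Sv2b, Sv2c) and 2 synaptogyrins (Syngr1, Syngr3). They were taken by gene symbol, were all found, and are 10 of the 55536 annotated genes in the deposited gene tables. All 10 passed the filter on low counts used for the ratio between libraries. The rule that selects them uses names and no measured value.

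Their proteins belong to the synaptic vesicle, the small organelle that stores neurotransmitter in nerve terminals. Synapsins lie on the outer face of the vesicle, hold vesicles in clusters and let them go when kinases phosphorylate them. Synaptophysin, synaptoporin (the product of Synpr) and the synaptogyrins are tetraspan proteins of the vesicle membrane, and synaptophysin binds the fusion protein VAMP2. The SV2 proteins are glycoproteins built like membrane transporters. SV2A binds the antiseizure drug levetiracetam, and SV2 proteins are entry receptors for botulinum toxin A.

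The samples were total RNA of hippocampus from 2 male B6CASTF1/J mice, hybrids whose parents were C57BL/6J and CAST/EiJ, adult at 8 to 10 months of age, with 1 library per animal made from 300 ng of RNA. Replicate 1 is labelled animal 2 and replicate 2 animal 4, although both share a donor entry. The labels name no treatment and give 1 group, so the spread between the 2 libraries is the only replicate error, and it may in part be technical. Each library was quantified by the authors with 2 programs on the mm10 assembly and GENCODE M21 annotation, here called the first and the second quantification. Levels are in TPM, in which a gene's reads are divided by effective length and scaled to a fixed sum per library.

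Expected counts summed to 23458117 in replicate 1 and 29584307 in replicate 2, and the members held 0.344% and 0.375% of those on annotated genes. No marker of the cell types listed, neurons, glia, endothelium or choroid plexus, was at 0 in both libraries. The 5 glutamatergic markers ranged from 58.5 TPM for Neurod2 to 1496 TPM for Camk2a, and their sum was 2830 TPM in replicate 1 and 2829 in replicate 2. The 9 GABAergic markers summed to 637 and 647 TPM. The 2 libraries differed in choroid plexus markers, which summed to 17.9 TPM in replicate 1 and 1792 TPM in replicate 2, with all 9 genes at least 1.5-fold higher in replicate 2, against 3.75% of the 16123 genes compared. The part of that difference in the values below was not tested. Bulk RNA cannot tell fewer cells of a type from less RNA per cell.

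The highest member mean was 111-fold the lowest, and the order of mean TPM ran Syp, Syn2, Sv2a, Syngr1, Syn1, Sv2b, Synpr, Syngr3, Sv2c and Syn3. Syp stood alone at the top with 1034 ± 77.7 TPM (SD, n = 2). By mean deposited TPM it had rank 11 of 22015 nuclear protein-coding genes. Syn2 followed with 296 ± 12.6 TPM. Sv2a, Syngr1, Syn1 and Sv2b lay close together between 170 and 198 TPM. Synpr and Syngr3 both had means near 80 TPM, and Sv2c and Syn3 had 10.8 ± 2.26 and 9.32 ± 1.90 TPM (SD, n = 2). A step between neighbours in this order was called separated where the deposited bounds of the 2 genes did not overlap in either library. By that rule 4 of 9 steps were separated, those from Syp to Syn2, Syn2 to Sv2a, Sv2b to Synpr and Syngr3 to Sv2c. The largest of them in fold was Syngr3 over Sv2c at 7.46-fold. The other 5 neighbouring pairs were not separated. Over all pairs of members 37 of 45 were separated, and the 8 that were not lay within the group of Sv2a, Syngr1, Syn1 and Sv2b or were the pairs Synpr with Syngr3 and Sv2c with Syn3. The bounds are given per library and hold no spread between animals, and what error they cover is not stated. In at least 1 library, 5 members had a TPM outside their own bounds, each time above the upper bound. Genes outside the members did so too, such as Snap25 with 1028 TPM against an upper bound of 991 in replicate 1. This was not counted over all genes.

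**Figure D1:**
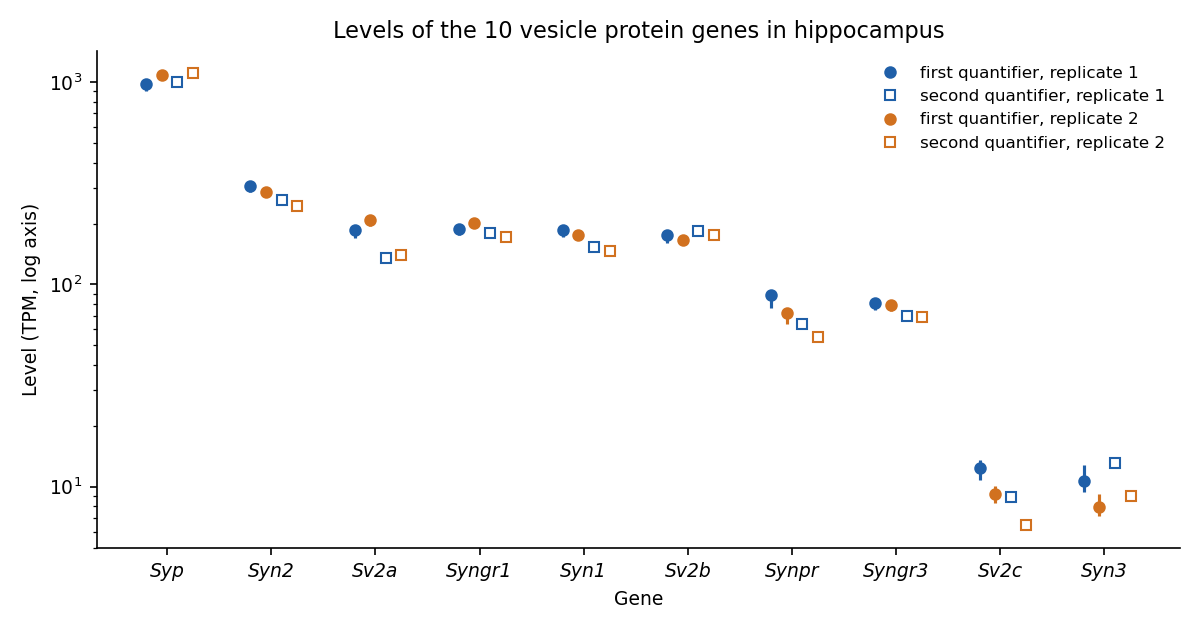
Level of each member in TPM on a log axis, with filled circles for the first quantification, vertical lines for its deposited bounds, and open squares for the second quantification, in blue for replicate 1 and orange for replicate 2. Syp lies near 1000 TPM by both quantifications, and Sv2c and Syn3 lie between 6.45 and 13.1 TPM.

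The upper part of this order did not depend on the program, and the middle did. Syp and Syn2 were first and second by the second quantification too, with 1051 ± 75.9 and 252 ± 12.02 TPM (SD, n = 2). Sv2a moved from the third place to the sixth, from 198 ± 15.8 to 137 ± 2.80 TPM (SD, n = 2). Sv2b then led the SV2 genes with 180 ± 5.76 TPM (SD, n = 2). Syngr3 stood above Synpr, and Syn3 above Sv2c, in the second quantification.

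The synapsins were led by Syn2. Syn2 lies on chr6:115134902-115282006, plus strand, and had 305 TPM in replicate 1 and 287 TPM in replicate 2. Syn1, the X-linked synapsin on chrX:20860511-20921004, minus strand, had 185 and 175 TPM. Syn3, the synapsin otherwise known for its early expression in development, lies on chr10:86055125-86498896, minus strand, and had 10.7 and 7.98 TPM. In neither library did the bounds of 2 synapsins overlap. Syn2 made up 61.0% and 61.1% of the synapsin TPM, Syn1 36.9% and 37.2%, and Syn3 2.13% and 1.70%. The second quantification gave Syn2 nearly the same share, 61.0% and 61.2%.

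Both annotated Syn1 messages were present at close to equal shares. Syn1-202 encodes 670 codons and held 52.9% of the gene's TPM in replicate 1 and 53.6% in replicate 2, and 54.1% and 51.5% by the second quantification. Syn1-201 encodes 706 codons and held 47.1% and 46.4%, and 45.9% and 48.5% by the second quantification. The 2 programs and the 2 animals therefore differed by at most 2.55 percentage points for each message. The messages correspond to the short and the long form of synapsin I, called Ib and Ia, which differ at their ends. The difference is a splice acceptor of the last exon, which lies 38 bases further upstream in Syn1-201. As 38 is not a multiple of 3, the reading frame after it also differs, and the last exon holds 133 coding bases in Syn1-201 and 25 in Syn1-202. The coding strand across this junction is printed from GENCODE M21 for mm10, chrX:20861547-20862528 on the minus strand, with the 38 bases that only Syn1-201 holds (chrX:20861572-20861609) in capitals.
Syn1-201: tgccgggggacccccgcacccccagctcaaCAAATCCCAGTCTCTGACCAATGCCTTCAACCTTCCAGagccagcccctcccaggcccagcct
Syn1-202: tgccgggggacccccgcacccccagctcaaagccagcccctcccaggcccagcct
The first 30 letters of both are the end of the preceding exon, and the letters after the capitals are the start of the last exon up to the last sense codon of Syn1-202. These letters, like all sequences printed here, are those of the reference assembly. The CAST/EiJ alleles that the hybrid mice also carry at autosomal genes are not printed. Syn1 and Syp lie on the X chromosome, of which males have no second copy.

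Syn2 messages split into a long form, a short form and an entry annotated without a coding sequence. The long form Syn2-201, with 586 codons (IIa), held 22.9% and 23.7% of Syn2 TPM, and 22.1% and 22.5% by the second quantification. The short form of 479 codons (IIb) held 40.6% and 36.8%, against 32.9% and 30.2% by the second quantification. In the first quantification all of the short form's share stood on Syn2-203, and in the second nearly all of it stood on Syn2-202. These 2 entries encode the same protein and differ in 48 bases at their 5′ ends. The summed share of the short form does not depend on that split, which cannot be compared between programs. Its size is still uncertain, because 3145 of the 3257 bases of Syn2-206, described below, are also in Syn2-203. The short form stood above the long form in both libraries by both quantifications. The 2 forms part at the end of a shared exon, where the short form reads on into what is intron for the long form. The coding strand is printed for mm10, chr6:115274227-115278165 for Syn2-201 and chr6:115274227-115274321 for Syn2-203, with the 65 bases after the parting in capitals. For Syn2-203 the capitals run to its last sense codon.
Syn2-201: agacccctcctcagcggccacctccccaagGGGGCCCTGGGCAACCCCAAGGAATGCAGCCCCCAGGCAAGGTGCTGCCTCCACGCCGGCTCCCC
Syn2-203: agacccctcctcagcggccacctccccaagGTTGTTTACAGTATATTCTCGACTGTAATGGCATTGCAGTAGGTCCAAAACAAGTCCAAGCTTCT
Each run of capitals begins directly after the same 30 bases, which end the coding sequence that the forms share.

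Syn2-206, an entry of 3257 bases annotated without a coding sequence, held 34.4% and 38.7% of Syn2 TPM, and 41.0% and 45.3% by the second quantification. It was the leading Syn2 entry in replicate 2 by the first quantification and in both libraries by the second. It begins inside the gene at chr6:115238994, and 3145 of its bases are also in Syn2-203, so that 112 bases set it apart from that message. Syn2 was the only member whose leading entry changed between libraries in the first quantification. The promoter of Syn2 and the 250 bases before the start of Syn2-206 are printed from RefSeq (GRCm38.p6, plus strand), chr6:115134652-115134901 and chr6:115238744-115238993. Capitals mark the motifs searched on both strands, which were TATAAA (the TATA box), GGGCGG (the core of the GC box), CCAAT (the CCAAT box) and TGACGTCA (the cyclic AMP response element).
Syn2-202: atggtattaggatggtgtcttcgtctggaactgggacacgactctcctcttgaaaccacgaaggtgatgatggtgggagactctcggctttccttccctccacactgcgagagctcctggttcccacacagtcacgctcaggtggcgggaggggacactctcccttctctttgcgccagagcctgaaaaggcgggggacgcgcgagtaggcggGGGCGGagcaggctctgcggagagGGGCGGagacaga
Syn2-206: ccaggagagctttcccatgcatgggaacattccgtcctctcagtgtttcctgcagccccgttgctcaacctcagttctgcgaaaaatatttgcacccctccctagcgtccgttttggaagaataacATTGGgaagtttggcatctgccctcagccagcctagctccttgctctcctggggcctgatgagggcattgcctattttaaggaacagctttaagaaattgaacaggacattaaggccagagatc
The upstream window was 61.2% G or C with 16 CpG dinucleotides and held GGGCGG, whereas the internal window was 50.4% G or C with 5 CpG and held CCAAT on the opposite strand. Of 32851 promoters in the RefSeq table, 32.7% held GGGCGG and 33.8% held CCAAT in the same length, and their median was 52.4% G or C with 6 CpG. A match describes the letters and does not show a bound factor.

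Syn3 had the lowest count of the members, 369 in replicate 1 and 385 in replicate 2, and its shares differed by 30.3 percentage points between programs. Syn3-201, with 579 codons, led in both libraries by both quantifications, with 70.0% and 83.9% by the first and 44.2% and 58.2% by the second. Syn3-205, an entry of 566 bases without a coding sequence, was at 0% in both libraries by the first and at 23.8% in both by the second. Syn3-204, with a retained intron, held 13.8% and 1.34% by the first and 21.2% and 6.98% by the second. Only Syn3-201 therefore had a share that led by every reading, and its size ranged over 39.7 percentage points across programs and libraries.

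Each synapsin gene carries a Timp gene, which encodes an inhibitor of matrix metalloproteases, on the opposite strand within its span. Timp1, inside Syn1, had 0.27 and 0.22 TPM. Timp4, inside Syn2, had 11.6 and 10.7 TPM. Timp3, inside Syn3, had 32.2 and 34.0 TPM, which is 3.55-fold the mean of its host. The Timp genes did not follow the order of their hosts, since the highest of the 3 lay in the lowest synapsin. Timp1 shared no exonic bases with Syn1, Timp4 shared 90 with Syn2, and Timp3 shared 1733 with Syn3. The library kit keeps the strand, per the labels, but the counting's strand setting is not given in the sources, so reads in the bases shared with Timp3 are uncertain for Syn3.

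Of the synaptophysins, Syp was the higher, with a mean 12.9-fold that of Synpr. Syp lies on chrX:7638471-7653256, plus strand, and had 979 TPM in replicate 1 and 1089 TPM in replicate 2, with bounds of 905 to 959 and 1024 to 1073. Synpr, on chr14:13284780-13616340, plus strand, encodes synaptoporin, a protein known for its abundance in mossy fibre terminals of the hippocampus. It had 88.6 and 72.0 TPM. Syp made up 91.7% and 93.8% of the TPM of the pair. With the 2 further genes of the family added, Sypl (23.7 and 23.4 TPM) and Sypl2 (1.86 and 0.84 TPM), the mean share of Syp was 90.7%. The 7 markers of dentate granule cells, the cells that send out mossy fibres, summed to 191 TPM in replicate 1 and 164 TPM in replicate 2. In scaled counts their median log2 ratio of replicate 2 over replicate 1 was -0.19, with 5 of 7 below 0, and that of Synpr was -0.02 by the first quantification and 0.05 by the second. Whether these markers bear on Synpr was not tested.

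A large part of the Syp level rested on 1 short entry, and which entry that was depended on the program. The full coding message Syp-201, with 314 codons and 2591 bases, held 56.7% and 54.7% of Syp TPM by the first quantification and 45.6% and 44.5% by the second. In the first quantification the rest stood almost entirely on Syp-206, an entry of 433 bases without a coding sequence, at 41.3% and 43.5%. The second quantification placed Syp-206 at 0% in both libraries and put 53.8% and 55.3% on Syp-202, a partial coding entry of 494 bases, which the first had at 0% and 0.10%. In expected counts the short entries were small. Syp-206 held 8.80% and 9.55% of Syp's expected counts and Syp-202 10.9% and 11.5% of the estimated counts of the second quantification. Syp-201 held 90.3% and 89.8% of the counts in the first and 88.4% and 88.2% in the second. TPM divides each count by effective length, and the short entries are 433 and 494 bases long against 2591.

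**Figure D2:**
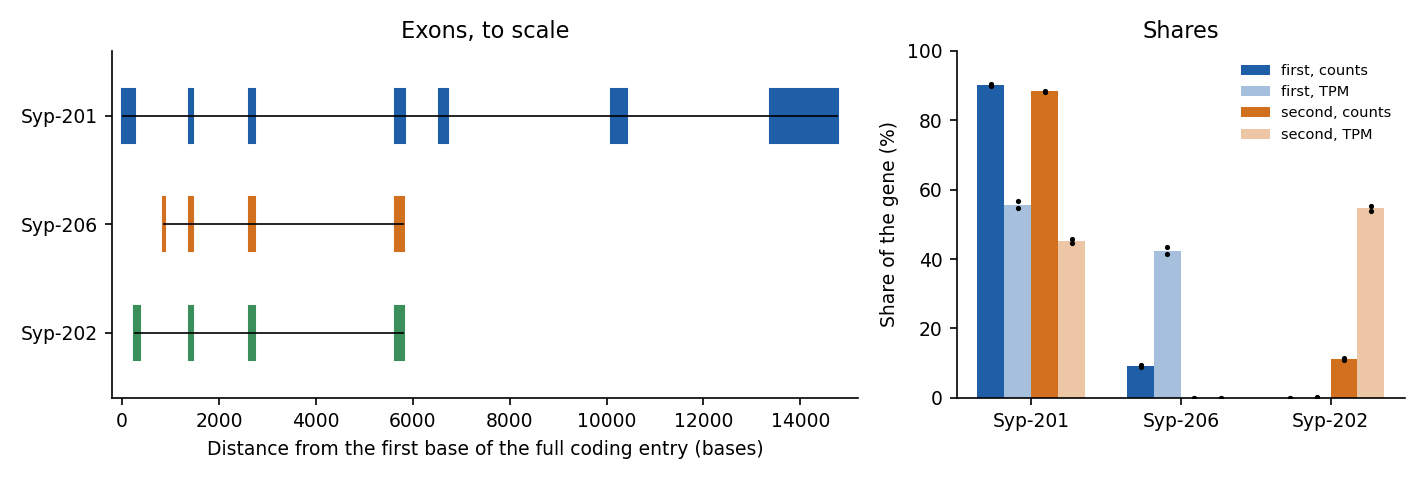
Left, exons of 3 Syp entries drawn to scale by distance in bases from the first base of Syp-201. Right, their share of the gene in percent, as counts (dark) and TPM (light) by the first (blue) and second (orange) quantification, with bars at the mean of the 2 libraries and dots for each. Syp-206 has 42.4% of the TPM by the first and none by the second, where Syp-202 has 54.6%.

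The 2 short entries share 374 bases with each other, all of them also in Syp-201. The bases that set each apart are at its start. They are printed in capitals from GENCODE M21 (mm10, plus strand), with the first 30 bases of the shared second exon in lower case. For Syp-206 the capitals are its first exon, chrX:7639305-7639363, and for Syp-202 they are chrX:7638729-7638830, which extend the first exon of Syp-201 into its first intron.
Syp-206: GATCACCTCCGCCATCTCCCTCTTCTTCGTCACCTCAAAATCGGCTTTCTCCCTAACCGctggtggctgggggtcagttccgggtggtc
Syp-202: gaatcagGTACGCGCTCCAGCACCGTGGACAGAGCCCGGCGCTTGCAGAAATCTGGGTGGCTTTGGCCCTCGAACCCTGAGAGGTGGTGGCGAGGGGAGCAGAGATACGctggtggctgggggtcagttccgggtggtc
Only 59 bases are particular to Syp-206 among these 3 entries and 102 to Syp-202.

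Dividing all Syp counts by the effective length of Syp-201 alone, a calculation chosen after these shares were seen, gave 639 ± 34.2 TPM (SD, n = 2). The deposited level was 1.62-fold that value. Syp remained the highest member, at 2.48-fold the 258 ± 11.6 TPM (SD, n = 2) of Syn2 computed in the same way. Its rank among all nuclear protein-coding genes was computed for the deposited level only. At the 3′ end, Syp also shares 875 exonic bases with Gm14703, a gene on the opposite strand.

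Synpr also had much of its TPM on a short entry, which here was the same in both programs. Its coding message Synpr-201, with 285 codons, held 42.8% and 49.6% of Synpr TPM, and 48.4% and 55.9% by the second quantification. Synpr-208, an entry of 668 bases whose every base is also in Synpr-201, held 41.9% and 38.8%, and 42.1% and 39.4% by the second. Synpr-206, of 349 bases, held 13.5% and 7.25% by the first and 0% in both libraries by the second. In counts Synpr-201 held 77.0% and 79.7%. With all counts on Synpr-201 the level was 47.0 ± 3.09 TPM (SD, n = 2), and the deposited mean was 1.71-fold that, which was the largest such ratio among the members. Entries under 1000 bases held on average 44.1% of Syp TPM and 52.5% of Synpr TPM. Over the 7085 genes that had a mean of 10 TPM or more and entries on both sides of that length, 19.0% had 40% or more of their TPM on such entries, and the median was 17.8%. Of the 8 members with both kinds of entry, 2 passed 40%.

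The SV2 genes divided into 2 high members and 1 low member. Sv2a, on chr3:96181151-96195521, plus strand, had 187 and 209 TPM. Sv2b, on chr7:75114894-75309262, minus strand, had 175 and 166 TPM. Sv2c, on chr13:95954594-96132577, minus strand, is known for a narrower distribution in brain that includes the basal ganglia, and had 12.4 and 9.16 TPM. The bounds of Sv2a and Sv2b overlapped in replicate 1 and not in replicate 2, so they were not separated, and both lay above Sv2c in both libraries. Sv2a made up 49.9% and 54.4% of SV2 TPM and Sv2b 46.8% and 43.2%. By the second quantification the order was the opposite in both libraries, with Sv2a at 41.2% and 43.3% and Sv2b at 56.1% and 54.7%. No lead of one over the other can be stated from these tables. Sv2c had 3.30% and 2.39% by the first and 2.72% and 2.00% by the second. The 7 markers of striatal neurons, one of the cell classes known for Sv2c, summed to 43.1 and 56.3 TPM. Most of that rise was in Ppp1r1b, with 26.2 and 38.4 TPM. Drd1, Drd2 and Tac1 were also higher in replicate 2, Rgs9 and Adora2a were lower, and Gpr6 was equal. Sv2c TPM was lower in replicate 2, but its log2 ratio in scaled counts was -0.02. The part of these markers in the Sv2c values was not tested.

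The programs differed on 1 short entry of Sv2a. Sv2a-201, with 742 codons, held 80.9% and 77.4% of Sv2a TPM by the first quantification and 94.0% and 97.6% by the second. Sv2a-203, of 432 bases, all of them also in Sv2a-201, held 15.0% and 20.7% by the first and 0% in both libraries by the second. In counts Sv2a-201 held 97.8% and 97.6% by the first. With all counts on Sv2a-201 its level was 160 ± 8.05 TPM, and that of Sv2b on Sv2b-201 was 167 ± 1.86 TPM (SD, n = 2).

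Sv2b had several annotated starts for 1 protein. Sv2b-201, Sv2b-202 and Sv2b-204 all encode the same number of codons, 683, and start at 3 places. Sv2b-201 held 54.2% and 59.8% of Sv2b TPM, and 39.4% and 41.3% by the second quantification. Sv2b-202 held 35.6% and 39.8%, and 20.7% and 22.0% by the second. Sv2b-204 held 3.08% and 0%, and 13.7% and 16.9% by the second. The short entry Sv2b-205, of 422 bases, was at 0% by the first and at 24.96% and 19.4% by the second. Sv2b-201 led in both libraries by both quantifications and Sv2b-202 stood above Sv2b-204. The 250 bases before each start are printed to describe the 3 starts. The values above are shares of whole entries and do not measure the use of a start. They are from RefSeq (GRCm38.p6, minus strand), chr7:75309263-75309512 for Sv2b-202, chr7:75308387-75308636 for Sv2b-201, whose RefSeq start lies 7 bases from that of GENCODE, and chr7:75220020-75220269 for Sv2b-204. Capitals mark the same 4 motifs as for Syn2.
Sv2b-202: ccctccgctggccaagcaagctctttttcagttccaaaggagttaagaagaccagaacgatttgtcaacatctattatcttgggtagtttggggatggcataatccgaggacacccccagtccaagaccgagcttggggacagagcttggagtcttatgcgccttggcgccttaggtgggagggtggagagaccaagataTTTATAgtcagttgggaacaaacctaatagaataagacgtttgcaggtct
Sv2b-201: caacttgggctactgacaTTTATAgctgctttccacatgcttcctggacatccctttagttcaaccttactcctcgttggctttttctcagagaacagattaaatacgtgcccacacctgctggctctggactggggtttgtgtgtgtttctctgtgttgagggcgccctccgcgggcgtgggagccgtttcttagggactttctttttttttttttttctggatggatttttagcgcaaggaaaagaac
Sv2b-204: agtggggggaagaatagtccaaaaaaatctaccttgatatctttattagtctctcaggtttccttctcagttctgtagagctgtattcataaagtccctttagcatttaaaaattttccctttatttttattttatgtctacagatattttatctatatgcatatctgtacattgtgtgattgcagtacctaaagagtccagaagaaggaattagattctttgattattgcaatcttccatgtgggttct
The first 2 windows held TATAAA on the opposite strand, 50 and 232 bases before the start, and were 48.8% and 47.2% G or C with 7 and 8 CpG dinucleotides. The window of Sv2b-204, the entry with the lowest share of the 3 by both quantifications, held none of the 4 motifs. It was 32.8% G or C and had 0 CpG. Whether these letters bear on the shares was not tested. TATAAA was in 12.4% of all 32851 promoters. Among the 13 promoters that the RefSeq table holds for 8 of the 10 members, these were the only 2 with TATAAA, 6 held GGGCGG, and TGACGTCA was found in that of Syn1 alone, against 1.55% of all promoters. The median of those 13 was 56.4% G or C with 11 CpG.

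Sv2c differed between libraries in deposited TPM more than in scaled counts. Whether its messages or the assignment of reads to them differed was not tested. It had 1065 and 1306 expected counts, and scaled counts gave a log2 ratio of -0.02 for replicate 2 over replicate 1, whereas the ratio of its deposited TPM was -0.43. The message Sv2c-201, with 727 codons and 9101 bases, held 59.1% of TPM in replicate 1 and 78.2% in replicate 2. Sv2c-203, with 667 codons and 2197 bases, held 37.1% and 21.8%. The second quantification gave the same direction, with 27.2% and 2.20% for Sv2c-203. Sv2c-203 had 135 expected counts in replicate 1 and 79.7 in replicate 2. The TPM of Sv2c-201 itself was 7.30 and 7.16.

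Of the synaptogyrins, Syngr1 was the higher. Syngr1 lies on chr15:80091334-80119501, plus strand, and had 188 and 202 TPM. Syngr3, on chr17:24685092-24689955, minus strand, had 81.3 and 79.1 TPM. The 2 were separated in both libraries, and Syngr1 made up 69.9% and 71.8% of their TPM. Syngr2, the synaptogyrin known from many tissues outside the nervous system, had 9.80 and 8.35 TPM, and Syngr4 was listed at 0 and 0.06 TPM, the latter from 1 count. With these 2 added the mean share of Syngr1 was 68.6%. The first exon region of Syngr1 lies within the span of Rpl3 on the opposite strand and shares no exonic base with it.

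Syngr1 had 1 dominant message. Syngr1-201, with 234 codons (1a), held 93.0% and 92.9% of Syngr1 TPM, and 78.6% and 89.5% by the second quantification. Syngr1-202, with 191 codons (1b), held 5.28% and 6.75%, and 10.5% and 10.2% by the second. The forms end in different last exons, joined to the same preceding exon. The coding strand is printed for mm10, chr15:80111715-80115944 for Syngr1-201 and chr15:80111715-80113255 for Syngr1-202, with 30 bases of the shared exon and then 90 coding bases of each last exon in capitals, which for Syngr1-202 is all of its coding sequence there.
Syngr1-201: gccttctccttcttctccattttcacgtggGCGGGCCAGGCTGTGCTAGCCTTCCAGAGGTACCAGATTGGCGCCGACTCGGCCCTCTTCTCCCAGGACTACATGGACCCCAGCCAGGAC
Syngr1-202: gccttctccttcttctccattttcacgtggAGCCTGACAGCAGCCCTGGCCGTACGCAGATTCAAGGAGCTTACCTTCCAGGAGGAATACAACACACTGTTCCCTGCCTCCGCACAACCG
The last exon of Syngr1-202 lies between the last 2 exons of Syngr1-201, so that it is intron in the dominant message. Syngr3-201, with 229 codons, held 100% and 91.0% of Syngr3 TPM, and 99.8% and 100% by the second quantification.

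**Figure D3:**
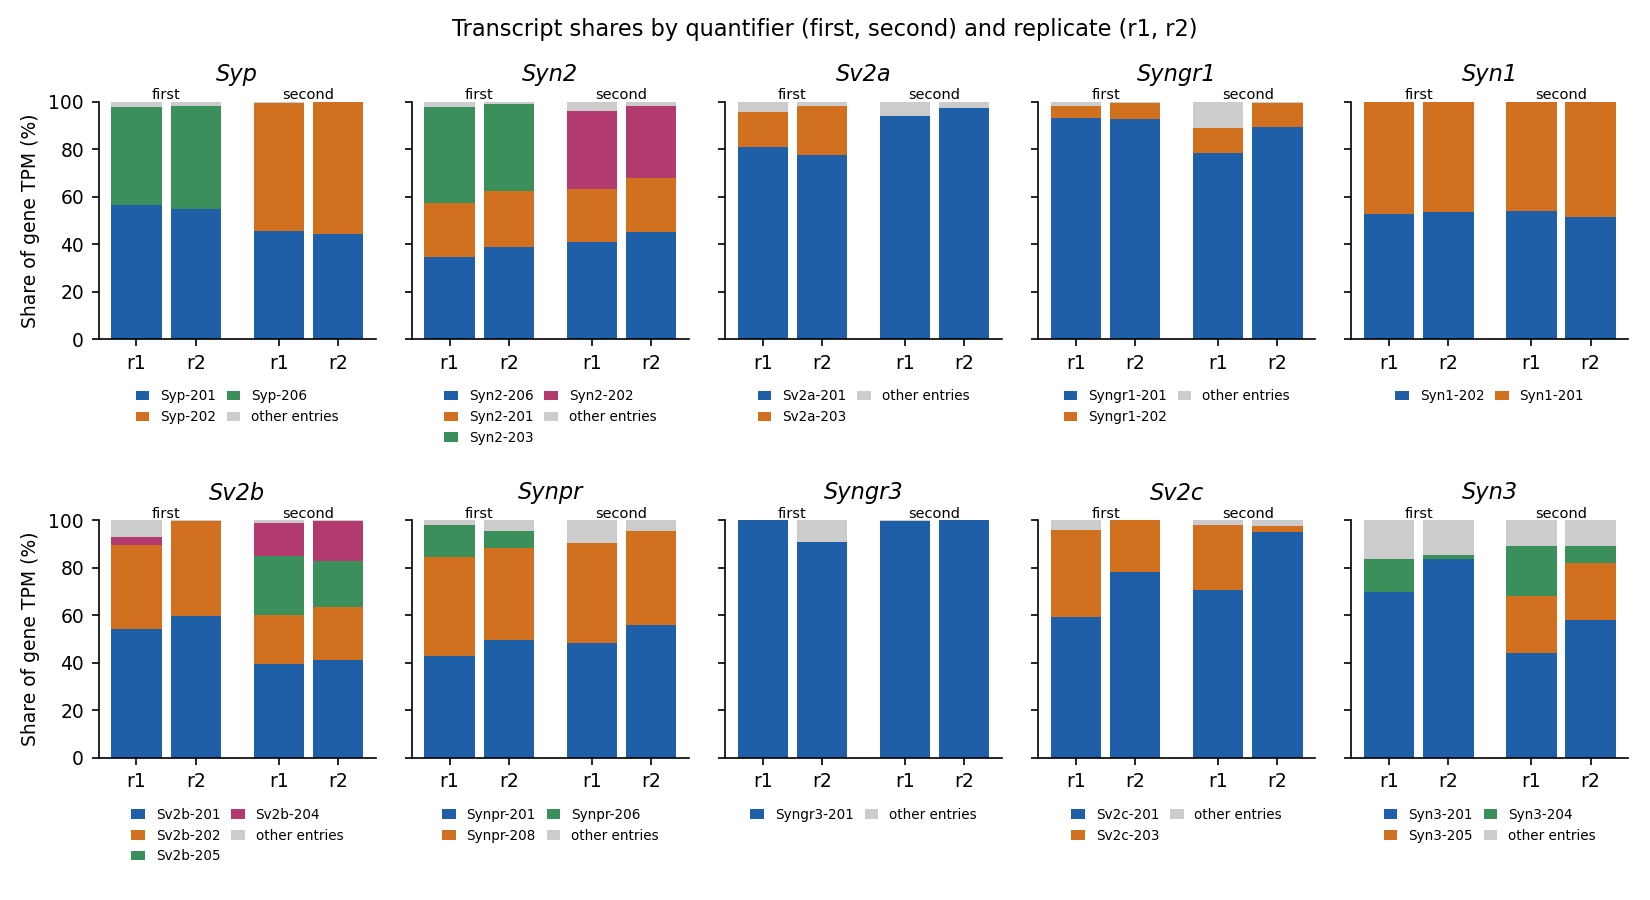
Share of each gene's TPM in percent, by annotated entry, for the first and second quantification and for replicates 1 (r1) and 2 (r2), with entries below a mean of 10% by both in grey. The 2 Syn1 messages have near-equal bars in all 4 columns, whereas Syp, Syn2 and Sv2b change colours between quantifications more than between replicates.

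In most members, as in most of the genes set beside them, transcript shares moved more with the program than with the animal. The leading entry was the same in both libraries for 9 of 10 members by the first quantification and for 10 of 10 by the second. It was the same in both libraries and by both programs for 8, the exceptions being Syn2 and Syp. Leading entries were not counted over all genes, so these counts do not set the members apart. The share of a gene's TPM placed on other entries was 16.7 percentage points between programs and 5.54 between libraries as a median over the members. The same medians over 8261 genes with a mean of 10 TPM or more and several entries were 16.1 and 12.02 points. Those genes include many of lower level than most members, whose median was 175 TPM, and the distances were not matched for level. The distance between programs exceeded that between libraries in 7 of 10 members and in 59.4% of all those genes. It was equal to it in Syn1 and Syngr3, which have 2 entries each, and below it in Sv2c. Syp had a distance of 54.5 points between programs, which is at the 96.9th percentile of those genes, Syn2 had 39.7 and Sv2b 36.0. Syn1 had 1.61.

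None of the 10 members was 1.5-fold or more apart between the libraries in scaled counts, where 14.1% of the 16123 genes that passed the filter were. For 10 genes a count of 0 is near that share and does not set the members apart. The 16123 genes also reach down to a CPM of 1 in 1 library, whereas Syn3, the lowest member, had 15.7 and 13.1. The share of all genes that were 1.5-fold higher in replicate 2 was 3.75%, and lower 10.3%. The log2 ratios of replicate 2 over replicate 1 ran from -0.25 for Syn3 to 0.23 for Syp, with a median of 0.05 against 0.00 over all genes, whose quartiles were -0.22 and 0.16. Syp, Sv2a and Syngr1 lay at 0.22 or 0.23, Sv2b at 0.14, and Syngr3, Syn1 and Syn2 at 0.07, 0.04 and 0.03. Synpr and Sv2c both lay at -0.02. Scaling to the ERCC spike-ins shifted the median of all genes to -0.23 and put all 10 members below 0, from -0.48 for Syn3 to just under 0 for Syp, so that 7 of the 10 changed sign. In deposited TPM, Sv2c, Syn3 and Synpr had ratios of -0.43, -0.42 and -0.30, with 3 of 10 members above 0. The choroid plexus markers had a median log2 ratio of 4.49 in the same comparison.

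**Figure D4:**
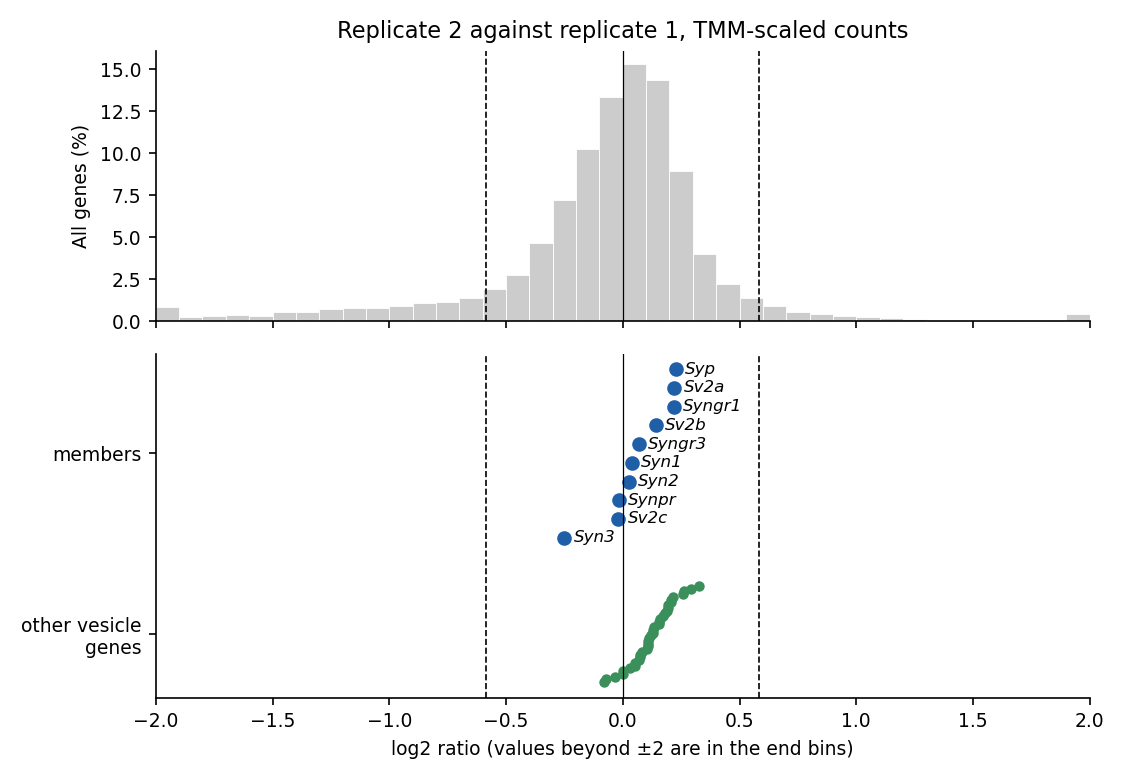
Top, share of all genes in percent by log2 ratio between libraries (replicate 2 over 1, CPM scaled by TMM). Bottom, each member (blue) and each of 36 other vesicle genes (green) on the same axis, spread vertically for legibility, with dashed lines at 1.5-fold, which no blue or green point passes.

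Other genes of the vesicle and its recycling gave a frame for these levels. The list held 36 genes for fusion proteins, transmitter transporters, the proton pump and coat proteins. They ranged from 11.98 to 1048 TPM with a median of 172 TPM, against 175 TPM for the members. The 3 highest were Snap25, a partner of VAMP2 in membrane fusion, with 1028 and 1068 TPM, Slc17a7, the vesicular glutamate transporter of cortical and hippocampal neurons, with 612 and 631 TPM, and Dnm1, the GTPase that cuts off recycled vesicles, with 616 and 598 TPM. The 3 lowest were Slc17a6, another vesicular glutamate transporter, with 10.8 and 13.2 TPM, the small GTPase gene Rab27b with 12.9 and 14.4 TPM, and the calcium sensor gene Syt2 with 17.4 and 15.1 TPM. In deposited TPM, Syp was on the level of Snap25, whereas with all counts on the leading coding transcript Syp had 639 TPM and Snap25 997 ± 21.1 TPM (SD, n = 2). By the mean of the 2 libraries, Sv2c lay below all 36 in the first tables, in the second and on the leading coding transcript. By that mean, Syn3 lay below all 36 in the first tables alone. In the second it had 11.05 TPM against 10.3 for Syt2. On the leading coding transcript it had 10.3 TPM against 9.97 for Slc17a6 and 8.74 for Rab27b. Within replicate 1, Sv2c was above Slc17a6 in the first tables, with 12.4 against 10.8 TPM. There it was also above Rab27b on the leading coding transcript, with 8.39 against 8.31 TPM. None of the 36 was 1.5-fold or more apart between libraries, against the same 14.1% of all genes, which include many of lower count. Their median log2 ratio was 0.13, with 33 above 0. With ERCC scaling 4 were above 0 and the median was -0.11, and in deposited TPM 19 were above 0 with a median of 0.02. Svop, which encodes a vesicle protein related to SV2, had 77.8 and 81.8 TPM, and its paralog Svopl 0.41 and 0.29 TPM.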

How the data were processed

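Total RNA libraries of hippocampus from 2 mice were read from 1 gene table and 2 transcript tables each. Per the submitters' file descriptions, the authors used mm10 and GENCODE M21; names and versions of their programs are not given in the sources. The deposited expected counts of the gene and first transcript tables are reads that a program divided among features from an alignment to transcripts. The deposited estimated counts of the second transcript table were made from the read files. The TPM values of both were computed by the authors from those counts over effective length, which was 100 bases under full length for long transcripts in the first and 248 in the second. The deposited percent values divide an entry's TPM by the sum over its gene. The level of the deposited bounds and the error they cover are not stated, and as they are given per library they hold no spread between animals.

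Second-table values were summed per gene here. Of the counts, 0.210% and 0.243% were on features outside the annotated genes and took no part. For the ratio between libraries, expected counts were rounded, genes with a CPM of 1 or more in at least 1 library were kept, and TMM factors and log2 CPM with a prior count of 2 came from edgeR 4.0.16 in R 4.3.3. The ratio was run on simulated counts first. No test was possible with 1 group, so "apart" means 1.5-fold. The distance between 2 sets of transcript shares is the sum of the absolute differences divided by 2. Motifs were searched in 250 bases before RefSeq starts.

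All members, paralogs and Timp genes are named. Of the other vesicle genes, those named are the 3 highest, the 3 lowest and any past 1.5-fold. Entries are named where their mean share was 10% or more by either quantification, beside a few entries chosen after their values were seen. The members and lists were chosen with earlier results of these data known. Alternatives were the second tables, other scalings (DESeq2 1.42.0 size factors, total count, ERCC), filters, prior counts, family definitions and each library alone.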

Additional observations from a re-analysis of the deposited data

How the results depend on the processing

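The lead among the SV2 genes passed from Sv2a to Sv2b under 3 alternatives, and ERCC scaling put all 10 members' ratios below 0, against 3 of 10 with TMM scaling. The median of the members' mean TPM was 175 and became 144 with the second tables, 353 when TPM was rescaled over nuclear protein-coding genes alone, and 164 with all counts on the leading coding transcript, an alternative chosen after seeing the data. With 1 library left out it was 170 to 180. The count of separated steps was 4 of 9. It was 5 from the ranges of the 2 libraries, 8 by those ranges in the second tables, and 7 with all counts on the leading coding transcript. With 1 library it was 4 to 5. The synapsin share of Syn2 was 61.0% on average, 61.9% in counts and 57.7% with all counts on the leading coding transcript. The share of Sv2a among SV2 genes was 52.2%, and became 42.2% in the second tables, 41.9% in counts and 47.8% on the leading coding transcript, with Sv2b then the highest. Syp had 92.8% of its pair, 94.6% in the second tables and 90.7% with paralogs. Syngr1 had 70.8%, 83.4% in counts and 68.6% with paralogs. Leaving out 1 library gave 61.0% to 61.1% for Syn2, 49.9% to 54.4% for Sv2a, 91.7% to 93.8% for Syp and 69.9% to 71.8% for Syngr1.

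The counts of 0 members and 0 other vesicle genes past 1.5-fold held under all 7 alternatives run. Of the members' single levels, 8 of 10 moved by more than 1 SD in the second tables. The ratios and the leading entries need both libraries, so no library was left out there. No paired analysis was possible because the labels define 1 group. Syn3, with 369 and 385 counts, had the lowest depth of the members.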
